A study of Mus musculus with 12 samples.

Results

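The effect of the Tet2 label on a background labelled null for Id1 was examined in 6 of the series' 12 RNA sequencing libraries, all of those whose genotype label was Id1KO (3 libraries) or dKO (3 libraries). The dKO label stands for loss of both Tet2 and Id1. The cells were donor hematopoietic cells from mouse bone marrow that lacked lineage markers and carried the receptor Kit, sorted out of recipients of a competitive transplant, and ribosomal RNA was depleted from total RNA before stranded libraries were made. The other 6 libraries, 3 labelled WT and 3 labelled Tet2KO, were used for the same comparison on the background with intact Id1. No allele, Cre driver, donor age, time after transplant or number of mice is given in the labels. All 4 groups share the transplant, and the labels do not say whether the 3 libraries of a genotype came from separate mice, so every p-value below measures the spread between these libraries, which may be technical.

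Tet2 encodes an enzyme that oxidizes 5-methylcytosine and so opens the way to DNA demethylation, and its loss in blood stem cells is a known cause of clonal hematopoiesis and myeloid skewing. Id1 encodes a helix-loop-helix protein without a DNA-binding region that ties up E proteins, the partners of many lineage regulators. The Kit-positive, lineage-negative fraction holds mostly committed myeloid, erythroid and megakaryocyte progenitors with a small share of stem cells. The comparison asks which transcripts go with the Tet2 label when Id1 is labelled absent in both groups.

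Values are given in CPM, the usual scale of counts relative to a library's scaled total, in the order of replicates 1, 2 and 3. A gene was called when its edgeR quasi-likelihood p, adjusted over all 14346 genes tested, was under 0.05, and log2 fold changes are dKO minus Id1KO, with their SE. Total counts were 17994745 to 19139395 per Id1KO library and 15706407 to 16881651 per dKO library. Median squared count differences of library pairs were 1.24 to 2.10 times those of sampling noise within the 2 groups. Between the groups they were 2.92 to 3.53 times those of sampling noise. Id1KO replicate 3 and dKO replicate 2 deviated together from their group means (r = 0.59 across genes, which are not independent replicates), and counts without both are given where they differ by more than 1.5 times. Kit, the receptor used in the sort, was at 314, 316 and 315 CPM in Id1KO and at 317, 324 and 320 CPM in dKO. The T cell genes Cd3d, Cd3e and Cd3g and the granulocyte gene Ly6g, markers that a lineage depletion removes, did not reach the count filter. Most genes of the lineage lists described below did reach it, with 26 of 32 lymphoid, 26 of 27 neutrophil and 15 of 18 macrophage genes tested. These 4 genes therefore do not show how pure the sort was.

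The targeted genes did not bear out the labels. Tet2 (chromosome 3, 133463679 to 133545139, GRCm38) was at 90.3, 92.5 and 93.3 CPM in the libraries labelled Id1KO and at 121, 119 and 115 CPM in those labelled dKO. The dKO libraries were all above the Id1KO libraries, with a log2 fold change of 0.36 ± 0.031 (SE, n = 3 and 3, edgeR adjusted p = 5.82e-08). Id1 (chromosome 2, 152736251 to 152737410) was at 3.84, 3.69 and 4.35 CPM in Id1KO and at 4.18, 3.35 and 4.25 CPM in dKO, and the groups overlapped (log2 fold change -0.01 ± 0.15, edgeR adjusted p = 0.972). Both groups are labelled null for Id1, so that overlap does not test the label. In WT, Id1 was at 1.76, 1.24 and 1.41 CPM, lower than in every Id1KO library. These levels rest on 24 to 34 counts per WT library and 70 to 79 counts per Id1KO library. The estimated counts are totals per gene, so a deleted exon would not be seen in them, and every direction below is between libraries carrying these labels. Within 5 Mb on either side of Tet2, 5 of 55 genes tested were higher and 3 lower, a share of 14.5%. Within the same distance of Id1, 11 of 119 genes were higher and 7 lower, a share of 15.1%, against 19.3% of all genes tested. The difference between backgrounds, tested below and called for 14.5% of all genes, was called for 5 of the 55 genes around Tet2 (9.09%) and for 30 of the 119 around Id1 (25.2%).

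In all, 2762 of 14346 genes were called (19.3%), of which 1514 were higher in the dKO libraries (10.6% of those tested) and 1248 were lower (8.7%). Most of these changes were small: the median size of a called log2 fold change was 0.25, and 234 called genes changed by more than 2-fold, 163 upwards and 71 downwards. The median over all genes tested was -0.002. The libraries of the 2 groups did not overlap for 4757 of the 14346 genes tested (33.2%), the share to set beside each gene described without overlap. In bulk RNA, fewer cells of a type and less RNA per cell cannot be told apart, which applies to every lineage gene below.

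The genes with the lowest log2 fold changes included receptors, matrix proteins and a phosphatase. Mgl2, a lectin receptor of macrophages and dendritic cells, was at 12.6, 10.8 and 11.6 CPM in Id1KO and at 2.85, 2.63 and 2.24 CPM in dKO. Its log2 fold change of -2.18 ± 0.16 (edgeR adjusted p = 3.97e-09) was the lowest among the genes ranked, and the groups were far apart. Ptpn13, a tyrosine phosphatase, was at 8.24, 8.95 and 9.96 CPM in Id1KO and between 2.22 and 2.33 CPM in dKO (-1.99 ± 0.14, edgeR adjusted p = 3.27e-09). Vcam1, an adhesion molecule for integrins, was at 30.2, 28.9 and 29.5 CPM in Id1KO against 14.0, 11.9 and 12.1 CPM in dKO (-1.22 ± 0.068, edgeR adjusted p = 7.92e-11). Each of these 3 genes was lower in every dKO library than in every Id1KO library. The matrix genes Col5a1, a collagen chain, Spon2, a secreted matrix protein, and Timp3, an inhibitor of metalloproteinases that overlaps Syn3 on the opposite strand, had log2 fold changes of -1.32, -1.48 and -1.21. The receptor genes Olr1, which takes up oxidized lipoprotein, and Flt1, a receptor of vascular endothelial growth factor, stood at -1.25 and -1.09. Its ligand gene Vegfa was lower too, at 31.5, 31.0 and 31.7 CPM in Id1KO and 18.9, 18.4 and 19.3 CPM in dKO (-0.74 ± 0.055, edgeR adjusted p = 6.83e-09). The peptide transporter gene Slc15a2 (-1.38), Tmem267 (-1.80), Syde2 (-1.10) and Mcemp1 (-1.17) complete this end with Xist, Hspa1a and Prg2, described below. The kinase gene Rps6ka2 had one of the smallest p-values, with 48.7, 49.9 and 48.5 CPM against 24.7, 24.8 and 27.2 CPM (-0.94 ± 0.047). Rps6ka2 shares annotated transcript sequence with Sod2, and their summed counts had a log2 fold change of -0.25.

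Among the genes that rose, several were abundant and changed by about the same amount in each library. Polr2a, the largest subunit of RNA polymerase II, was at 65.5, 65.3 and 64.9 CPM in Id1KO and at 138, 138 and 140 CPM in dKO (1.09 ± 0.04, edgeR adjusted p = 8.7e-14). The replicates of each group lay close together and the groups were about 2.13-fold apart. Ahnak, a very large scaffold protein, rose from 100, 96.2 and 97.8 CPM to 181, 181 and 175 CPM (0.87 ± 0.029, edgeR adjusted p = 1.68e-14). Kcnq1ot1, a long non-coding RNA of an imprinted locus, rose from 244, 241 and 239 CPM to 377, 407 and 374 CPM (0.68 ± 0.033). Pcbp2, an RNA-binding protein gene that overlaps Map3k12 on the opposite strand, rose by 0.70 ± 0.035. Chil3, a secreted chitinase-like protein of neutrophil and macrophage precursors, was at 2.14, 2.13 and 2.09 CPM in Id1KO and at 4.94, 6.35 and 5.38 CPM in dKO (1.39 ± 0.16, edgeR adjusted p = 3.05e-06). Fn1, fibronectin, was at 4.94, 5.26 and 4.18 CPM against 10.3, 8.86 and 10.5 CPM (1.04 ± 0.13). Nrp2, a co-receptor of semaphorins and growth factors, rose by 0.92 ± 0.11, and the growth factor gene Nrg1 by 0.93 ± 0.12. Atn1 (1.18), Mospd3 (1.14) and Nos1ap (0.96) also rose. Atn1 shares most of its exons with an overlapping gene model, and with that model added its log2 fold change was 1.003. Ugt1a6a (0.96) shares its last exons with 5 other Ugt1a genes, and over all 6 genes the value was 0.33.

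**Figure D1:**
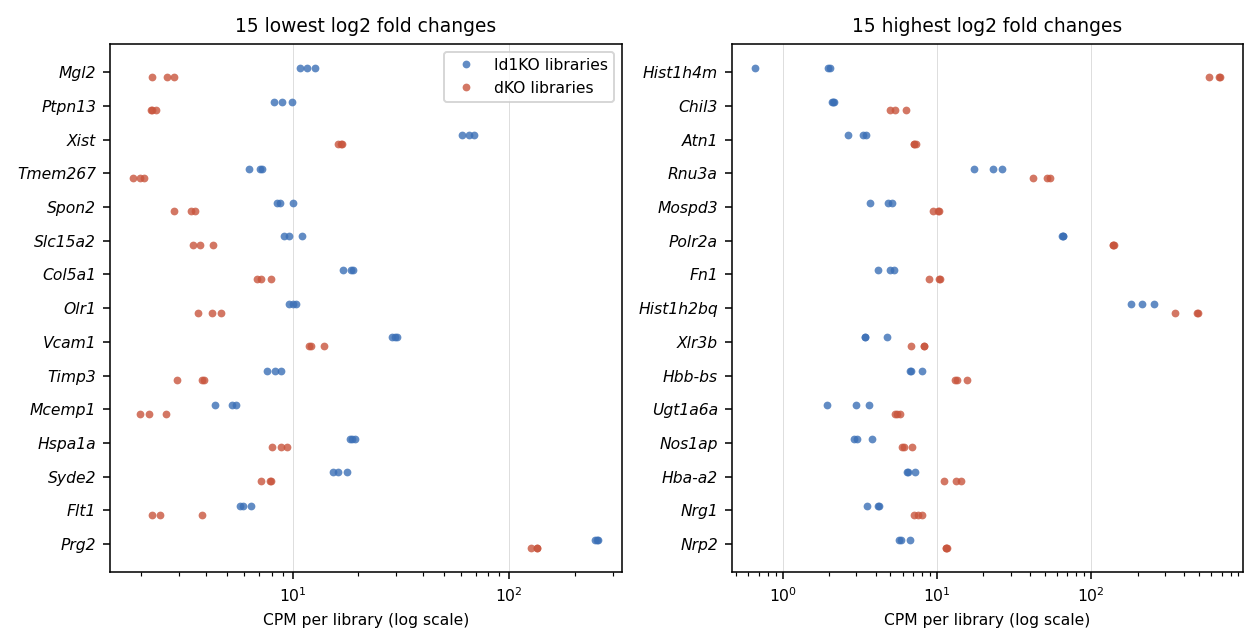
CPM in each of the 3 Id1KO (blue) and 3 dKO (red) libraries on a log scale, for the 15 genes with the lowest (left) and the 15 with the highest (right) log2 fold changes among called genes that average 5 CPM or more in either group. The libraries of the 2 groups do not overlap for any gene shown, which the choice of genes required, and Hist1h4m stands apart with 2.03, 1.98 and 0.66 CPM against 683, 581 and 669 CPM.

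The gene with the highest log2 fold change, Hist1h4m, encodes histone H4 and lies in a block of 6 histone genes on chromosome 13 (21806612 to 21837530, GRCm38). The block holds Hist1h2bq, Hist1h2ao, Hist1h4m, Hist1h4n, Hist1h2ap and Hist1h2br, a mirrored pair of triplets. All but Hist1h4m and Hist1h2bq were chosen after their values were seen. Hist1h4m was at 2.03, 1.98 and 0.66 CPM in Id1KO and at 683, 581 and 669 CPM in dKO, while its level was 477 ± 18 CPM in WT and 653 ± 9.2 CPM in Tet2KO (SD, n = 3). The Id1KO libraries were thus the ones that differed, and those labelled dKO lay near the other 2 groups. The other H4 gene of the block, Hist1h4n, was at 621, 650 and 583 CPM in Id1KO and at 522, 467 and 514 CPM in dKO, a change in the opposite direction (-0.30 ± 0.04, edgeR adjusted p = 1.65e-05). The coding sequences of both genes, 312 bases in the GENCODE M21 transcripts, differ at 0 positions, and that of Hist1h4h, an H4 gene elsewhere on chromosome 13, differs from them at 10. Coding bases 1 to 90 are shown because they let a reader see which reads could not be assigned to 1 gene, 5′ to 3′ in coding sense, with differences from Hist1h4m in capitals.
Hist1h4m, chromosome 13, 21811746 to 21812147, plus strand: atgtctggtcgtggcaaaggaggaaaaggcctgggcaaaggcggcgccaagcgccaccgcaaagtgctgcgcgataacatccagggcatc
Hist1h4n, chromosome 13, 21831767 to 21832196, minus strand: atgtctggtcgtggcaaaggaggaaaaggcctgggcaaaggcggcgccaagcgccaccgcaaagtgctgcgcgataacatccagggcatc
Hist1h4h, chromosome 13, 23531050 to 23531519, plus strand: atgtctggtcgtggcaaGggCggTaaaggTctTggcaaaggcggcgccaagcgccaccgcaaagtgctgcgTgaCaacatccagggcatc
Hist1h4h differs at 7 of the bases shown, and it was not called, at 0.01 ± 0.0497.

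The other 4 genes of the block were lower in Id1KO than in dKO as well. Hist1h2bq, a histone H2B gene, was at 213, 256 and 181 CPM in Id1KO and at 489, 347 and 483 CPM in dKO (1.02 ± 0.11, edgeR adjusted p = 2.01e-06). Hist1h2ap, an H2A gene, was at 428, 481 and 407 CPM against 660, 705 and 818 CPM (0.73 ± 0.063). Hist1h2ao and Hist1h2br had log2 fold changes of 0.60 and 0.68, and in each of these 4 genes the groups did not overlap. Summed over the 6 genes, a quantity that does not depend on how reads were split among them, the block stood at 1401 ± 112 CPM in Id1KO and at 2510 ± 208 CPM in dKO (SD, n = 3), a ratio of 1.79. It was at 2526 ± 79 CPM in WT and 2539 ± 45 CPM in Tet2KO. The 13 other Hist1h genes within the same stretch of cluster, which starts at 21715763, summed to 2320 ± 153 CPM in Id1KO and 2305 ± 178 CPM in dKO, a ratio of 0.993. With all near-identical genes anywhere in the genome added, Hist1h4m and its 6 copies had a log2 fold change of 0.27, and Hist1h2bq with its 10 copies one of -0.019. The H2A genes Hist1h2ap and Hist1h2ao, summed with their copies, had log2 fold changes of 0.097 and 0.15 and were not called (edgeR adjusted p = 0.326 and 0.109). Among the 13 neighbours 2 genes were called, named here after their values were seen: Hist1h2bp fell (-0.40 ± 0.066) and Hist1h1b rose (0.15 ± 0.042). Reads that fit genes outside the block as well could have been given to either, so the levels of single genes here are uncertain.

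**Figure D2:**
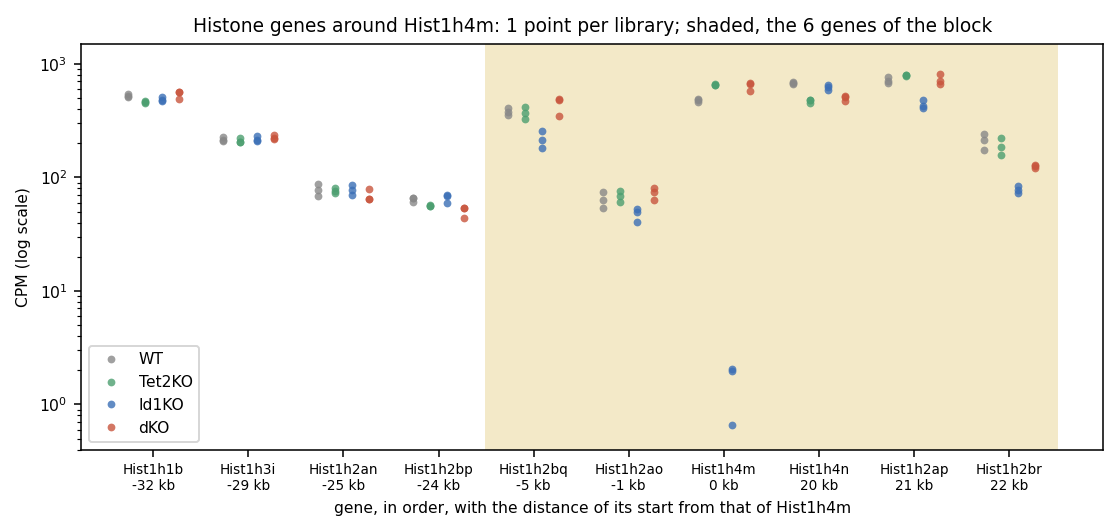
CPM (log scale) of 10 histone genes in order along chromosome 13, with 1 point per library in each of the 4 groups and the distance of each gene's start from that of Hist1h4m. In the shaded block of 6 genes the Id1KO libraries are below the dKO libraries at 5 genes and above them at Hist1h4n; at the 4 genes left of it the groups differ by less, with Hist1h2bp lower and Hist1h1b higher in dKO than in Id1KO.

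Lineage genes were described from lists of markers, with the number of tested members called in each direction. The lists were chosen with earlier results of these data known, so their counts are a description and not a test. For these and all later lists, the shares over all genes tested were 10.6% higher and 8.7% lower. The mast cell, basophil and eosinophil list was lower in dKO: 10 of 18 members fell and 1 rose, with a median log2 fold change of -0.33, against 8.7% of all genes lower and a median of -0.002. The eosinophil granule genes led. Prg2, the major basic protein, was at 257, 254 and 249 CPM in Id1KO and at 134, 125 and 135 CPM in dKO (-0.95 ± 0.03, edgeR adjusted p = 6.74e-15). Epx, eosinophil peroxidase, was at 67.5, 71.3 and 67.2 CPM against 34.1, 35.9 and 36.9 CPM (-0.95 ± 0.046, edgeR adjusted p = 1.35e-11). Il5ra, the receptor chain for the eosinophil growth factor interleukin 5, was low in both groups, at 1.70, 2.03 and 2.31 CPM against 0.571, 0.479 and 0.886 CPM (-1.63 ± 0.3). Hdc, which makes histamine, fell by 0.22 on the log2 scale, whereas the basophil protease gene Prss34 rose by 0.54 ± 0.071. No library of one group reached the range of the other for Prg2, Epx, Il5ra, Hdc or Prss34, as was true of 33.2% of all genes tested. The summed level of the list was 666 to 673 CPM in Id1KO and 464 to 474 CPM in dKO.

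The megakaryocyte list was lower too, with 13 of 23 tested members down, 1 up and a median of -0.27. Pf4, a chemokine of platelet granules, was at 51.9, 50.7 and 52.0 CPM in Id1KO and at 34.99, 32.69 and 29.00 CPM in dKO (-0.68 ± 0.056, edgeR adjusted p = 3.17e-08). Ppbp, its neighbour and also a platelet chemokine, had the largest fold of the list at a level below 2 CPM: 1.21, 0.833 and 1.54 CPM against 0.190, 0.359 and 0.295 CPM (-2.04 ± 0.39). Fli1, a transcription factor of megakaryocytes, fell by 0.12 ± 0.037 (edgeR adjusted p = 0.0232), a call lost without Id1KO replicate 1 or 3 or dKO replicate 1 or 2 (-0.11 to -0.12). The adhesion receptor gene Selp was the member that rose, by 0.28 ± 0.064. The summed list ran from 754 to 777 CPM in Id1KO and from 646 to 667 CPM in dKO.

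Monocyte and dendritic genes moved the other way. Of 29 tested members, 13 rose and 3 fell, with a median of 0.21 against 10.6% of all genes higher. Irf8, the transcription factor that directs progenitors to monocytes and dendritic cells, was at 268, 270 and 259 CPM in Id1KO and at 364, 341 and 357 CPM in dKO (0.41 ± 0.028, edgeR adjusted p = 2.17e-09). Ly6c2, a surface protein of inflammatory monocytes, was at 496, 493 and 492 CPM against 630, 633 and 607 CPM (0.34 ± 0.028), and its near-identical copy Ly6c1 did not change this value when added. F13a1, a coagulation factor made by monocytes, rose by 0.21 ± 0.028, and the transcription factor gene Runx2 by 0.53 ± 0.063. The summed list was 2350 to 2367 CPM in Id1KO and 2818 to 2834 CPM in dKO. Among transcription factors of myeloid cells 6 of 15 rose and 1 fell: Zeb2 went from 272, 276 and 277 CPM to 371, 387 and 371 CPM (0.45 ± 0.026, edgeR adjusted p = 1.12e-10), and Irf5 from 16.86, 17.95 and 18.16 CPM to 29.2, 23.9 and 28.5 CPM (0.62 ± 0.068). Myb, which maintains progenitors, was the member that fell, from 900, 880 and 895 CPM to 801, 815 and 797 CPM (-0.15 ± 0.024).

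Neutrophil genes moved in both directions. Of 26 tested, 10 rose and 5 fell, with a median of 0.18, or 0.11 in a fit of the 6 libraries alone. Mpo, myeloperoxidase of the early granules and one of the most abundant transcripts, overlapped between the groups, at 8449, 8799 and 8036 CPM against 8824, 8021 and 8671 CPM (0.01 ± 0.034, edgeR adjusted p = 0.831). Elane, the elastase of the same granules, was not called either (-0.08 ± 0.035, edgeR adjusted p = 0.103), but was without dKO replicate 1 (-0.11) and without the count filter. S100a9, a calcium-binding protein of maturing neutrophils and monocytes, rose from 12.6, 13.9 and 15.1 CPM to 22.6, 23.3 and 21.2 CPM (0.69 ± 0.074). Cebpe, the transcription factor of late granulocyte maturation, fell from 33.4, 35.8 and 32.7 CPM to 23.9, 21.7 and 23.3 CPM (-0.57 ± 0.061, edgeR adjusted p = 1.09e-06). The neutrophil surface gene Cd177 fell with it, from 3.844, 3.226 and 3.796 CPM to 1.395, 1.497 and 1.595 CPM (-1.27 ± 0.18). The list's summed level overlapped between the groups, at 13093 to 14039 CPM in Id1KO and 12920 to 14099 CPM in dKO.

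Stem cell genes were mixed, with 4 of 27 tested members higher, 10 lower and a median of -0.06, which was -0.14 without dKO replicate 3 and -0.10 without Id1KO replicate 3. The 4 were 2 by DESeq2 or without Id1KO replicate 1 or dKO replicate 2. Hoxa9, a homeobox gene of stem and progenitor self-renewal, was at 23.1, 23.6 and 23.4 CPM in Id1KO and at 12.6, 12.3 and 12.2 CPM in dKO (-0.92 ± 0.067, edgeR adjusted p = 5.06e-09). Txnip, a redox regulator abundant in quiescent stem cells, fell from 159, 155 and 164 CPM to 122, 122 and 125 CPM (-0.37 ± 0.029). Hoxa10, the lowest called member, was at 1.10, 1.09 and 1.27 CPM against 0.761, 0.359 and 0.295 CPM (-1.29 ± 0.36), and its call was lost without dKO replicate 2 (-1.13) or 3 (-1.04). Tek, the angiopoietin receptor, rose from 5.93, 5.98 and 4.79 CPM to 9.19, 8.50 and 8.09 CPM (0.62 ± 0.11), and the cytokine receptor gene Flt3 rose by 0.22 ± 0.038. Cd34 was at 285, 279 and 283 CPM against 287, 297 and 295 CPM and was not called (0.05 ± 0.025, edgeR adjusted p = 0.155). Of 26 lymphoid genes tested, 5 rose and 1 fell, a share of 23.1% called against 19.3% of all genes. Their median of 0.30 was 0.18 without dKO replicate 3 and 0.19 without dKO replicate 1 or Id1KO replicate 3. The member that fell, the T cell factor gene Tcf7, was at 1.87, 2.03 and 1.60 CPM against 1.14, 1.02 and 1.12 CPM (-0.74 ± 0.24), and its call was lost by DESeq2, in thinned counts (-0.67) and without any 1 of Id1KO replicates 1 and 2 and the dKO libraries (-0.66 to -0.77). Ighm, the heavy chain of immunoglobulin M, rose from 96.3, 93.9 and 92.8 CPM to 134, 122 and 129 CPM (0.44 ± 0.033), and Notch1, a receptor that directs T lineage fate, by 0.29 ± 0.038. Of 15 macrophage genes, 33.3% were called, against 19.3% of all genes. Of the 15, 2 rose, among them Adgre1 (0.73 ± 0.12), and 3 fell, among them the iron exporter gene Slc40a1 (-0.33 ± 0.061) and Vcam1. Of 16 genes of stroma and endothelium, 10 did not reach the count filter, and 1 of the 6 tested was called (16.7%).

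Among erythroid genes the globins rose and the carbonic anhydrases fell. The list had 7 of 31 tested members higher, 7 lower and a median of -0.02. The globin genes Hbb-bs and Hba-a2 were at 6.64, 6.82 and 8.03 CPM and at 7.25, 6.40 and 6.49 CPM in Id1KO. In dKO they stood at 15.6, 13.4 and 13.1 CPM (0.97 ± 0.1, edgeR adjusted p = 6.04e-07) and at 14.4, 11.1 and 13.3 CPM (0.95 ± 0.11, edgeR adjusted p = 5.25e-06). Slc4a1, the anion exchanger of the red cell membrane and the highest called member, was at 0.933, 0.468 and 0.660 CPM against 1.395, 1.197 and 1.949 CPM (1.14 ± 0.3, edgeR adjusted p = 0.0088), a call lost without Id1KO replicate 2 (0.92) or dKO replicate 3 (0.91). Summed with its near-identical copy, the β-globin pair had a log2 fold change of 0.93 and the α-globin pair one of 0.81. Carbonic anhydrase 1, Car1, went the other way, from 562, 545 and 554 CPM to 443, 442 and 438 CPM (-0.33 ± 0.028). Car2 fell by 0.12 on the log2 scale and the sphingosine kinase gene Sphk1 by 0.25. At these low levels the globin transcripts were a small part of the list, whose summed level was 3101 to 3118 CPM in Id1KO and 2873 to 2912 CPM in dKO.

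**Figure D3:**
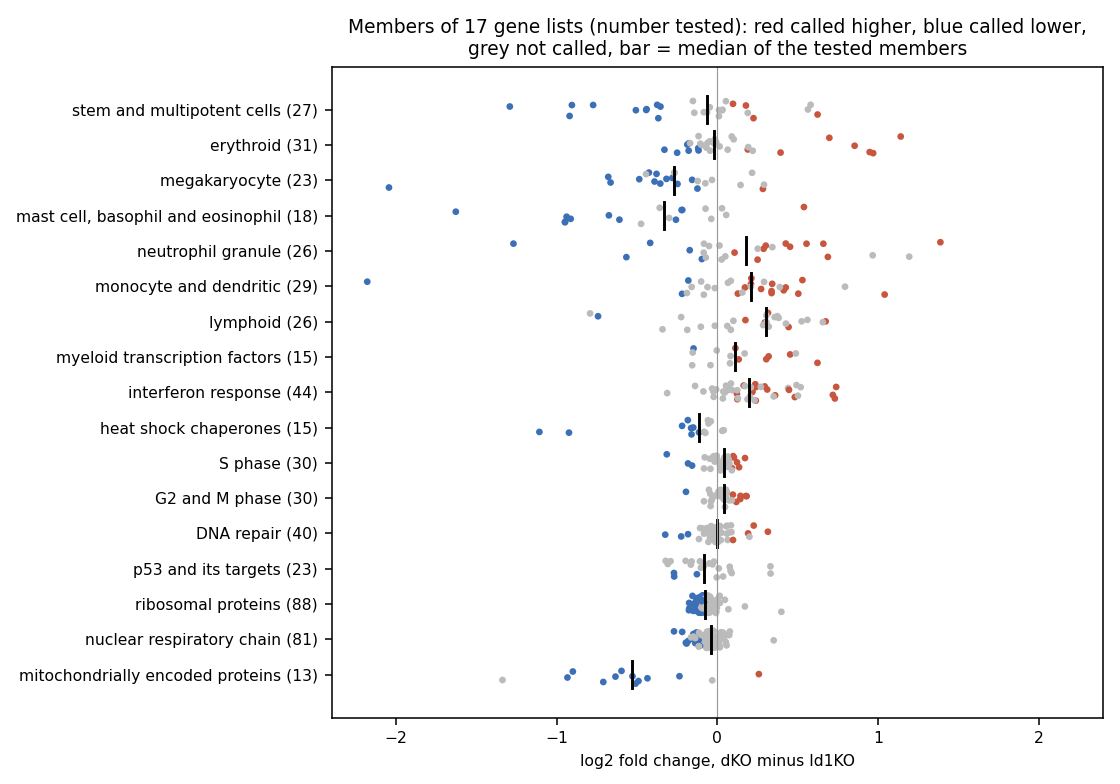
Log2 fold change, dKO minus Id1KO, of the tested members of 17 gene lists (1 point per gene, number tested in brackets), with called genes in colour and the list median as a bar. The mast cell, megakaryocyte and mitochondrial lists sit left of 0, with medians of -0.33, -0.27 and -0.53, and the monocyte, lymphoid and interferon lists right of it, with medians of 0.21, 0.30 and 0.19; Hist1h4m belongs to none of the lists shown.

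Interferon-stimulated genes showed called changes in 1 direction: 16 of 44 tested rose and 0 fell (edgeR; 0 fell at an unadjusted p under 0.05 and 0 by DESeq2), with a median of 0.19, against 10.6% and 8.7% of all genes. The changes were modest. Ly6e, an abundant membrane protein, was at 527, 533 and 496 CPM in Id1KO and at 570, 555 and 567 CPM in dKO (0.12 ± 0.029, edgeR adjusted p = 0.00506). Zbp1, a sensor of nucleic acids, was at 0.988, 1.14 and 1.49 CPM against 2.16, 2.10 and 1.77 CPM (0.73 ± 0.23), a call lost by DESeq2 and without Id1KO replicate 1 or 2 or dKO replicate 1 or 2 (0.61 to 0.70). Ifi27l2a, at the top of the list, was at 2.03, 2.19 and 2.37 CPM against 4.12, 3.77 and 3.13 CPM (0.74 ± 0.18, edgeR adjusted p = 0.0063), and the groups did not overlap for any of these 3 genes. The summed list was 2114 to 2172 CPM in Id1KO and 2296 to 2362 CPM in dKO. Among 26 genes of the TNF and NF-kB response, 3 rose and 3 fell, a share of 23.1% called against 19.3% of all genes. Tnfaip3, the feedback inhibitor A20, fell from 49.6, 50.2 and 47.6 CPM to 29.7, 32.9 and 31.1 CPM (-0.65 ± 0.052, edgeR adjusted p = 1.69e-08). The NF-kB subunit gene Rel rose from 17.2, 16.5 and 15.9 CPM to 24.0, 24.1 and 23.6 CPM (0.53 ± 0.055), and the inflammasome sensor gene Nlrp3 by 0.42 ± 0.1. Of 22 immediate early genes, which respond to stress and handling within minutes, 1 rose and 6 fell, or 3 without dKO replicate 2. The share called was 31.8%, against 19.3% of all genes. Dusp1 was among the lower ones, at 105, 112 and 108 CPM against 76.2, 79.3 and 81.6 CPM (-0.45 ± 0.041), as was Fosb (-0.38 ± 0.045).

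Of 26 genes of cytokine signalling and feedback, 4 rose and 5 fell, with a median of 0.04. The share called was 34.6%, against 19.3% of all genes. Receptor genes were among those called in each direction. Il6st, the shared signal chain of the interleukin 6 family, rose from 130, 128 and 133 CPM to 180, 183 and 185 CPM (0.49 ± 0.03, edgeR adjusted p = 4.77e-10). Csf2ra, the receptor chain specific for GM-CSF, fell from 52.2, 53.9 and 49.2 CPM to 36.8, 34.7 and 36.0 CPM (-0.53 ± 0.055, edgeR adjusted p = 6.88e-07). Csf2rb2, a receptor chain of the interleukin 3 family, rose from 3.90, 3.96 and 3.74 CPM to 6.78, 6.88 and 7.68 CPM (0.88 ± 0.12), but together with its abundant relative Csf2rb the log2 fold change was 0.11 and was not called (edgeR adjusted p = 0.0556). Socs3, a feedback inhibitor of cytokine signalling, was at 6.15, 5.72 and 5.01 CPM against 4.31, 4.07 and 4.25 CPM (-0.42 ± 0.13, edgeR adjusted p = 0.0258). That call was lost when either Id1KO replicate 1 or 2 or any 1 of the dKO libraries was left out, with log2 fold changes of -0.35 to -0.43, and with DESeq2.

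Cell cycle genes moved little, with 30% of S phase and 23.3% of G2 and M phase genes called against 19.3% of all genes. In the S phase list 6 of 30 rose and 3 fell (median 0.04, or 0.03 without dKO replicate 1 or Id1KO replicate 2), or 3 rose without Id1KO replicate 1, and in the G2 and M phase list 6 of 30 rose and 1 fell (median 0.04, or 0.03 without Id1KO replicate 2). Mki67, the proliferation antigen Ki-67, rose from 946, 929 and 942 CPM to 1049, 1077 and 1068 CPM (0.18 ± 0.024), and Top2a, topoisomerase II of cycling cells, overlapped between the groups at 795 to 831 CPM and 772 to 811 CPM (-0.04 ± 0.027, edgeR adjusted p = 0.309). Among D cyclins, their kinases and inhibitors, 3 of 12 rose and 2 fell, a share of 41.7% called against 19.3% of all genes. Ccnd1, cyclin D1, fell from 33.9, 33.7 and 31.4 CPM to 19.2, 15.6 and 17.4 CPM (-0.92 ± 0.068, edgeR adjusted p = 5.06e-09). Its exons overlap those of LTO1 on the opposite strand. Ccnd2, the more abundant cyclin D2, rose from 165, 168 and 164 CPM to 194, 204 and 200 CPM (0.27 ± 0.035), and its kinase gene Cdk6 from 960, 953 and 945 CPM to 1128, 1195 and 1127 CPM (0.27 ± 0.032). The inhibitor gene Cdkn1b, p27, fell by 0.23 ± 0.039.

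The series' title names genomic instability, so genes of DNA repair and of the p53 response were listed. Of 40 repair genes, 4 rose and 3 fell, a share of 17.5% called against 19.3% of all genes, and the median was -0.005. Brca2, a gene of homologous recombination, rose from 102, 99.7 and 103 CPM to 118, 123 and 115 CPM (0.23 ± 0.031, edgeR adjusted p = 2.25e-05). Xpc, a damage sensor of nucleotide excision repair, fell from 101, 100 and 98.7 CPM to 86.5, 83.8 and 86.5 CPM (-0.23 ± 0.033). Of 23 genes of p53 and its targets, 0 rose (edgeR; 2 at an unadjusted p under 0.05 and 0 by DESeq2) and 3 fell, a share of 13.04% called against 19.3% of all genes. Their median of -0.08 was -0.03 without dKO replicate 3 and -0.04 without Id1KO replicate 3, and Trp53 itself was not called (0.09 ± 0.036, edgeR adjusted p = 0.0923). Among 16 genes of DNA methylation, a share of 18.75% was called, against 19.3% of all genes. Of the 16, 3 rose, Tet2 among them, and 0 fell (edgeR, with 2 at an unadjusted p under 0.05 and 0 by DESeq2). Tet3, a relative of Tet2 with the same activity, was one of them, at 130, 133 and 124 CPM against 174, 162 and 171 CPM (0.39 ± 0.04, edgeR adjusted p = 5.94e-07), close to the change of Tet2 itself. Dnmt1, the maintenance methyltransferase, was not called (0.06 ± 0.025, edgeR adjusted p = 0.101), but was without dKO replicate 2 (0.07). Of 11 Id proteins and basic helix-loop-helix partners, 27.3% were called, against 19.3% of all genes. The E protein gene Tcf4 (0.18 ± 0.044) was among the 2 that rose and Mxi1, an antagonist of Myc, was the 1 that fell (-0.42 ± 0.062).

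Transcripts of mitochondrial DNA were lower in the dKO libraries. Of 13 protein-coding mitochondrial genes, 10 fell and 1 rose, with a median of -0.53. In Tet2KO against WT, 9 of the 13 were lower and 0 higher, with a median of -0.28. The difference between backgrounds, tested below, was called for 5 of them, all negative. For 1 of the 5, mt-Nd3, it was -0.057 and not called after summing with its nuclear copy (edgeR adjusted p = 0.55). The most abundant, mt-Co1, a subunit of cytochrome oxidase, was at 5608, 5463 and 5756 CPM in Id1KO and at 3801, 4075 and 3791 CPM in dKO (-0.53 ± 0.029, edgeR adjusted p = 6.84e-11). Cytochrome b, mt-Cytb, fell from 849, 825 and 820 CPM to 570, 616 and 568 CPM (-0.51 ± 0.037). The lowest called values were those of mt-Nd3 (-0.93 ± 0.073), whose sum with its nuclear copy stood at -0.56, and of mt-Nd6 (-0.90 ± 0.075), the member read from the other strand. Its overlapping neighbour mt-Nd5 was the member that rose, from 111, 105 and 93.3 CPM to 119, 129 and 122 CPM (0.26 ± 0.06), and it was not called without both libraries that deviated together (0.15). Summed, the 13 genes were at 9983 to 10059 CPM in Id1KO and at 6765 to 7429 CPM in dKO. Nuclear genes of the respiratory chain changed less, with 13 of 81 lower, 0 higher and a median of -0.04 (edgeR). Cytochrome c, Cycs, was among the lowest at -0.27 ± 0.032. Ribosomal protein genes were lower by small amounts, with 41 of 88 down, 0 up and a median of -0.08 (edgeR). In both lists 0 genes were higher at an unadjusted p under 0.05 and 0 by DESeq2. Rpl39, the lowest, was at 568, 554 and 568 CPM against 486, 504 and 505 CPM (-0.18 ± 0.027).

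Transcripts without an established gene structure moved the other way. The annotation's TEC class, transcribed regions without an established gene structure, and its sense-intronic class together held 887 tested genes, of which 226 were higher in dKO and 5 lower, a share of 26.0% called and a median of 0.35. Their summed level was 2069, 2006 and 2026 CPM in Id1KO and 2572, 2715 and 2627 CPM in dKO. Of these, 696 lay inside a tested protein-coding gene on the same strand and had a median of 0.42, while the genes around them had a median of 0.05. Of the 208 that were higher and lay inside such a gene, the host gene was called higher for 87, lower for 12 and not called for 109. Without Id1KO replicate 3 and dKO replicate 2 the count of 226 was 149, and by DESeq2 it was 144. The same classes had a median of 0.32 in Tet2KO against WT. Long protein-coding genes were also more often higher: in the 2396 genes with the greatest exonic length 20.9% rose and 8.64% fell, against 5.84% and 10.02% among the 2396 shortest. By GC content, 9.72% rose and 11.1% fell among the 2396 genes lowest in GC, against 9.60% and 8.35% among the 2396 highest. Among the 2396 genes next in exonic length, with a median of 6241.5 bases, 10.35% rose and 10.39% fell. Ahnak, described above, has an exonic length of 19938 bases. Polr2a has one of 7067 bases, below the median of 9883 bases of the longest genes. Mitochondrial, ribosomal, TEC and sense-intronic, and long transcripts moved in these directions together with the lineage lists, and their part in any single gene's result was not tested.

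**Figure D4:**
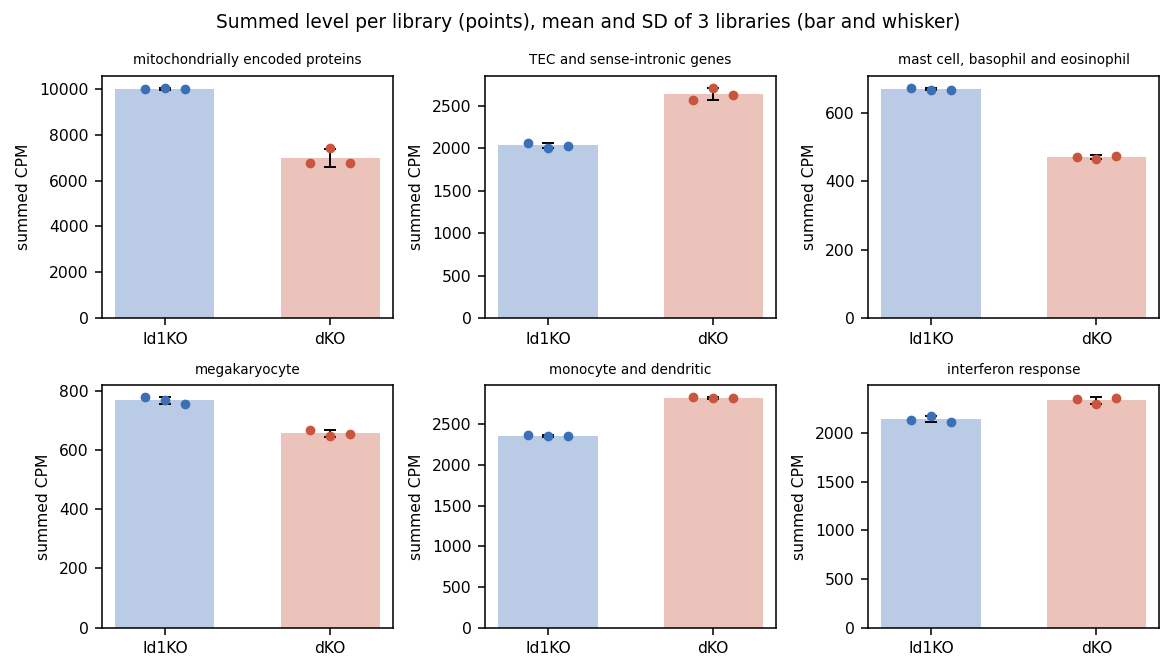
Summed CPM of the members of 6 gene groups in each Id1KO and dKO library (points), with the mean as a bar from 0 and the SD of 3 libraries as a whisker. Mitochondrial transcripts fall from 9983 to 10059 CPM to 6765 to 7429 CPM while TEC and sense-intronic transcripts rise, and the groups do not overlap in any panel.

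Heat shock chaperones were lower in dKO, with 8 of 15 down and 0 up (edgeR; 0 up at an unadjusted p under 0.05 and 0 by DESeq2) and a median of -0.11. The inducible Hsp70 genes were the lowest. Hspa1a was at 19.4, 18.3 and 18.8 CPM in Id1KO and at 9.38, 8.86 and 8.03 CPM in dKO (-1.11 ± 0.072, edgeR adjusted p = 9.25e-10), and Hspa1b, its near-identical copy, at 29.2, 31.3 and 27.3 CPM against 14.7, 13.9 and 17.7 CPM (-0.92 ± 0.075). Summed, the pair had a log2 fold change of -0.99. The constitutive and far more abundant Hspa8 fell by 0.16 on the log2 scale. The groups did not overlap for either Hsp70 gene.

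Whether the Tet2 label went with different changes on the 2 backgrounds was tested as the difference between dKO minus Id1KO and Tet2KO minus WT, which share no library. The difference was called for 2078 of 14346 genes (14.5%), 1070 positive and 1008 negative. Of the 2762 genes called between dKO and Id1KO, 776 (28.1%) also had a called difference, so for 1986 no difference was shown. Among the 776, 197 were called in opposite directions on the 2 backgrounds.

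Among genes called in both tests that averaged 5 CPM or more in either group, the Hsp70 pair had the most negative differences. Hspa1a was at 12.4 ± 0.39 CPM in WT and 43.8 ± 1.8 CPM in Tet2KO (SD, n = 3), a rise of 1.81, where the dKO libraries were lower than Id1KO. The difference was -2.92 ± 0.092 (edgeR adjusted p = 8.22e-15), and for Hspa1b it was -2.61 ± 0.1. Rbm44 (-1.54), Socs3 (-1.34) and Timp3 (-1.11) followed within the same limits. Below 5 CPM, Ppbp (-1.83) and Il5ra (-1.56) lay in the same range. Rbm44, an RNA-binding protein gene, rose on both backgrounds, by 0.63 here and by 2.17 in Tet2KO against WT.

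Erythroid genes made up the clearest group with a positive difference. In Tet2KO against WT, 28 of 31 were lower and 2 higher, with a median of -0.78, while the median here was -0.02. The difference was called for 26 of the 31 members and was positive in all 26. Car1 was at 493 ± 18 CPM in WT and 270 ± 3.1 CPM in Tet2KO, a change of -0.87, against -0.33 between dKO and Id1KO (difference 0.54 ± 0.04, edgeR adjusted p = 1e-08). For Car2 the difference was 0.72 ± 0.034 and for Sphk1 0.83 ± 0.059. The globin genes were lower in Tet2KO than in WT and higher in dKO than in Id1KO: for Hbb-bs the values were -0.78 and 0.97 (difference 1.75 ± 0.15), for Hbb-bt -0.99 and 0.85 (1.85 ± 0.23), and for Hba-a2 -0.73 and 0.95 (1.68 ± 0.17).

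Other lists had differences mostly of 1 sign. The mast cell, basophil and eosinophil list had 9 negative and 0 positive differences among 18 members: Prg2 was lower by 0.29 on the log2 scale in Tet2KO against WT and by 0.95 here (difference -0.66 ± 0.042, edgeR adjusted p = 1.05e-09), and the value for Epx was -0.61 ± 0.067. Of the 4 groups, Id1KO had the highest level of both, with Prg2 at 253 ± 3.8 CPM against 187 ± 4 CPM in WT and Epx at 68.7 ± 2.3 CPM against 46.4 ± 2 CPM (SD, n = 3). The megakaryocyte list had 10 negative and 2 positive differences, with Pf4 at -0.52 ± 0.084, and the stem cell list 11 negative and 1 positive, with Txnip at -0.49 ± 0.04. S phase genes had 11 positive and 1 negative. The monocyte list was divided, with 5 of each sign: Irf8, almost equal in WT and Tet2KO at 341 ± 4.9 and 350 ± 0.65 CPM, had a difference of 0.37 ± 0.04, and Ly6c2, which rose on both backgrounds, one of -0.17 ± 0.039. The ribosomal list had 1 called difference among 88 genes. For Hoxa9, Ccnd1, Ptpn13, S100a9, Tet2 and Tet3 no difference was called, with values of -0.14 ± 0.095, 0.11 ± 0.097, 0.08 ± 0.23, -0.02 ± 0.11, -0.03 ± 0.044 and -0.04 ± 0.056.

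**Figure D5:**
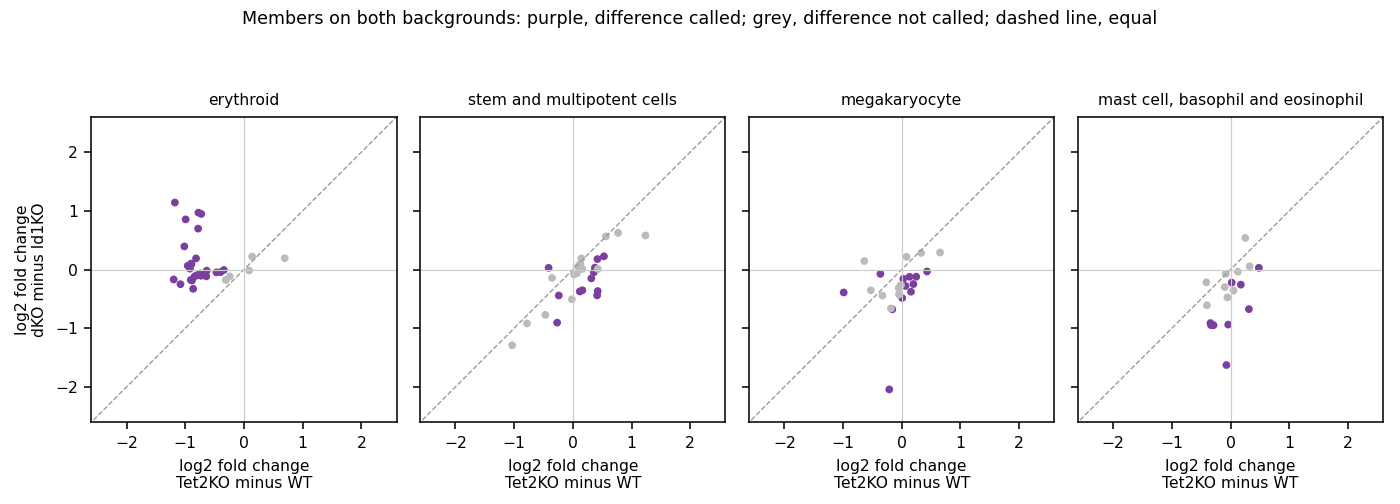
Log2 fold change of the tested members of 4 lists in Tet2KO minus WT (horizontal) and in dKO minus Id1KO (vertical), with genes whose difference was called in purple and equality as a dashed line. Most erythroid genes lie left of 0 and near or above 0 vertically, with 26 of 31 differences called, all positive; most purple points of the other lists lie below the line.

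Sex-linked genes differed between the groups. Xist, the RNA that coats the inactive X chromosome of female cells, was at 69.0, 65.1 and 60.5 CPM in Id1KO and at 16.99, 16.28 and 16.78 CPM in dKO (-1.96 ± 0.062, edgeR adjusted p = 6.74e-15). It stood at 262 ± 10 CPM in WT and 10.8 ± 1.1 CPM in Tet2KO, so the difference between backgrounds was 2.63 ± 0.098. Ddx3y, on the Y chromosome, was present in the same libraries, at 91.3, 90.3 and 98.5 CPM in Id1KO and at 79.4, 85.4 and 81.6 CPM in dKO (-0.18 ± 0.043), and at 48.9 ± 2.5 CPM in WT. The X-linked gene Xlr3b rose from 3.40, 3.43 and 4.73 CPM to 8.30, 6.76 and 8.27 CPM (1.01 ± 0.13), and with its copy Xlr3a by 0.77. The small nucleolar RNA gene Rnu3a was at 26.3, 17.3 and 23.2 CPM against 54.3, 51.6 and 41.9 CPM (1.15 ± 0.16), and its 2 gene entries together rose by 0.23. Xist levels followed the genotype label, with little spread within a group, so donor sex and genotype label cannot be told apart here. The part of donor sex in the other results was not tested.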

How the data were processed

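Sorted donor cells gave 12 libraries of stranded total RNA, 3 per genotype label, per the labels' protocols. The authors deposited estimated counts per gene, not normalized, and STAR, RSEM and mm10 are named in the submitters' processing notes; versions and the strand setting are not given in the sources used here. About 5% of genes per library were not whole numbers, so the deposited counts were rounded. All 55450 identifiers and symbols matched GENCODE M21, which gave positions and transcript sequences.

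Genes passing edgeR's filterByExpr (minimum count 10) numbered 14346. All 12 libraries were scaled by TMM and fitted together by edgeR's quasi-likelihood model, with 2 contrasts, dKO minus Id1KO and its difference from Tet2KO minus WT. P-values are two-sided, adjusted by Benjamini-Hochberg, threshold 0.05. Compared libraries held 15706407 to 19139395 counts, so a gene near 1 CPM rests on few counts and its fold is imprecise. With 3 libraries in each group, exact permutation gives no p below 0.1 and was not used.

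Members and the 31 lists were chosen with earlier results of these data known. Genes were named by rule: Tet2 and Id1; the 15 highest and 15 lowest log2 fold changes among called genes with at least 5 CPM in a group, no overlap of libraries and an established symbol; the 3 most abundant and the 2 highest and 2 lowest called members per list; the 5 largest differences of each sign; and the 5 smallest p per direction. Not all genes so chosen are printed. Copies were sought with blast at 95% identity over 100 bp and most of the shorter transcript. Alternatives were 3 other scalings, DESeq2, 2 other filters, only the 6 libraries, a replicate block, each library left out, glmTreat at 1.2-fold, a threshold of 0.01, thinned counts, libraries summed per genotype, and sums of copies; leaving out 2 libraries together was chosen after seeing the data. Steps were tested on simulated data. Fits ran in R 4.3.3 with edgeR 4.0.16 or DESeq2 1.42.0, copies were found with blast 2.17.0, and plots were drawn with matplotlib 3.10.9 under Python 3.11.15.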

Additional observations from a re-analysis of the deposited data

Results flagged for a closer look

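Each gene below was picked out because its dKO minus Id1KO change differed from the Tet2KO minus WT change by the test of that difference itself (edgeR quasi-likelihood, adjusted over all genes). The values are those differences on the log2 scale, and no explanation of them was tested.

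Positive differences were led by Hist1h4m at 8.23, Xist at 2.63, Slc4a1 at 2.32, Hbb-bt at 1.85, Xlr3b at 1.83, Rnu3a at 1.76, Hbb-bs at 1.75 and Hba-a2 at 1.68. Other histone genes of the chromosome 13 block had 1.05 for Hist1h2bq, 0.84 for Hist1h2br, 0.59 for Hist1h2ap, 0.49 for Hist1h2ao and 0.23 for Hist1h4n. Summed with their near-identical copies, Hist1h2bq and Hist1h2br had a difference of 0.014, Hist1h2ap one of -0.015 and Hist1h2ao one of 0.035, none of them called (edgeR adjusted p = 0.843 to 0.937). The sum was 0.29 for Hist1h4m and Hist1h4n and 0.45 for both Rnu3a entries, and both sums were called. Further positive values were 0.99 for Col5a1, 0.83 for Sphk1, 0.76 for Nrp2, 0.72 for Car2, 0.64 for Mospd3, 0.54 for Car1 and 0.54 for Nlrp3. Smaller ones were 0.45 for Polr2a, 0.39 for Slc40a1, 0.37 for Irf8, 0.33 for F13a1, 0.33 for Pcbp2, 0.28 for Brca2, 0.24 for Ighm, 0.23 for Kcnq1ot1, 0.17 for Zeb2 and 0.15 for Il6st.

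Negative differences were led by Hspa1a at -2.92, Hspa1b at -2.61, Ppbp at -1.83, Il5ra at -1.56, Rbm44 at -1.54, Id1 at -1.40, Socs3 at -1.34, Timp3 at -1.11 and Ddx3y at -1.03. For Id1 the level was 1.76, 1.24 and 1.41 CPM in WT against 4.35, 3.63 and 3.61 CPM in Tet2KO, while Id1KO and dKO did not differ by the test. Further negative values were -0.67 for Mgl2, -0.66 for Prg2, -0.61 for Epx, -0.52 for Pf4, -0.49 for Txnip, -0.48 for mt-Nd3 and -0.44 for Vcam1. Summed with its nuclear copy, mt-Nd3 had a difference of -0.057 and was not called (edgeR adjusted p = 0.55). Smaller ones were -0.38 for Cdkn1b, -0.36 for Tnfaip3, -0.35 for Cebpe, -0.30 for Flt3, -0.26 for Vegfa, -0.26 for Fli1, -0.24 for Hdc, -0.19 for mt-Co1, -0.19 for mt-Cytb, -0.17 for Ly6c2, -0.16 for Mpo and -0.13 for Ahnak.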

How the results depend on the processing

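The 2762 calls were 1901 by DESeq2 (1897 of them shared), 481 with glmTreat at 1.2-fold (327 higher, 154 lower), 1599 at a threshold of 0.01 (917 higher, 682 lower) and 2189 without both libraries that deviated together (1923 shared). Leaving out 1 library in turn gave 2109 to 2837 calls, 1165 to 1556 higher and 944 to 1281 lower. The fit with a replicate block gave 2576 calls and 1871 called differences. Deviations of same-numbered libraries of Id1KO and dKO from their group means correlated at r = 0.25, -0.34 and -0.33. Deviations from a group's mean are not independent of each other, so these values cannot show whether the numbers pair libraries. The 2078 called differences were 1342 by DESeq2, 237 with glmTreat, 972 at the threshold of 0.01 and 1582 to 2161 with 1 library left out. With libraries summed per genotype, a fit of a Tet2 effect common to both backgrounds gave 232 calls (165 higher, 67 lower); there Hspa1a stood at 0.42, Hspa1b at 0.41, Socs3 at 0.20, Ddx3y at 0.33, Fli1 at 0.0077 and Hbb-bt at -0.0099, opposite in sign to the value here, since that fit averages over backgrounds. Sums over copies turned Hist1h2bq and Hist1h2br to -0.019 and Hist1h4n to 0.27. Of 32 list medians, 23 kept their sign under all alternatives run, and the stem cell median was 0.02 with libraries summed. The difference could not be fitted on the 6 libraries alone or on summed libraries. Genes near 1 CPM are limited by counting.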
